A study of Homo sapiens with 12 samples.

Results

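The 9 genes described here make, cut or bind hyaluronan: the synthases HAS1, HAS2 and HAS3, the depolymerisation factors CEMIP and TMEM2, the hyaluronidases HYAL1, HYAL2 and HYAL3, and the receptor CD44. They were taken by symbol from 26499 genes counted in each library, and all 9 were found. The set was picked because CEMIP was lower in resistant cells of both lines, so that difference is described here without a test. The 12 libraries were made from polyadenylated RNA of the human melanoma lines A375 and SKMel28, with 3 libraries of vemurafenib-resistant and 3 of sensitive cells per line. The series is titled for IGF1 as a marker of resistance to targeted therapy in melanoma. Vemurafenib, an inhibitor of mutant BRAF, was present at 1 µmol/L for the A375 resistant and SKMel28 resistant cells, while no drug is named for the A375 sensitive and SKMel28 sensitive cells. All 4 groups grew in DMEM with 10% serum. Resistance and exposure to the drug therefore cannot be told apart. Each resistant line is 1 derivative, and the labels do not say whether it is a clone. They also name no separate cultures for the replicates, and p-values then reflect library-to-library spread alone, which may be technical.

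Hyaluronan is a long unbranched sugar polymer of the extracellular matrix. HAS enzymes at the plasma membrane extrude it from UDP-glucuronic acid and UDP-N-acetylglucosamine, and it is cut outside the cell with the help of CEMIP, TMEM2 or HYAL2 before fragments are degraded in lysosomes. Cells bind the polymer mainly through CD44, and a hyaluronan-rich coat is a known feature of many tumours, melanoma included.

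Each library held between 28496518 and 37721363 reads in genes. Levels are CPM, reads scaled to a common library total, with totals adjusted by TMM, a method that assumes most genes do not change. Melanocytic markers summed to 7268 to 11076.5 CPM in the SKMel28 libraries but to 373 to 383 CPM in sensitive A375 and 31.3 to 33.7 CPM in resistant A375. In resistant A375 cells 7 of these 8 markers were below 1 CPM, SOX10 among them at 0.138 CPM, and TYR had no read. MITF was at 31.0 CPM there. In sensitive A375 cells 5 of the 8 were below 1 CPM, while SOX10 was at 325 CPM, MITF at 39.6 CPM and S100B at 10.9 CPM. The resistant A375 libraries thus carry few defining markers of the melanocyte lineage, and SOX10 was present in the sensitive ones. Summed markers of other cell types were 17.8 to 30.2 CPM for fibroblasts, 28.5 to 124 CPM for keratinocytes, 1.86 to 6.70 CPM for endothelium and 38.4 to 764 CPM for immune cells. KRT10 gave most of the keratinocyte sum, with group means from 30.8 to 95.9 CPM, and CD68 most of the immune sum, with group means from 30.97 to 761 CPM. KRT1 and CD3E had no read in any group. In SKMel28, mitochondrial genes took 6.82% to 7.13% of gene reads in resistant and 4.41% to 4.67% in sensitive libraries, and the part of this and of the marker shifts in the results below was not tested.

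CEMIP, which encodes a secreted protein needed for hyaluronan depolymerisation in several cell types, was lower in every resistant library than in any sensitive library of the same line. In A375 the resistant libraries held 13.2, 12.9 and 13.6 CPM and the sensitive ones 60.7, 65.3 and 78.3 CPM. In SKMel28 they held 33.0, 34.5 and 25.9 CPM against 181, 159 and 163 CPM. The log2 fold change was -2.36 ± 0.13 (SE), 5.12-fold, in A375 and -2.43 ± 0.12, 5.40-fold, in SKMel28. These are the values that chose the set, and no test is attached to them or to their difference between lines of 0.08. In these bulk libraries, fewer cells with CEMIP RNA and less RNA per cell cannot be told apart. Between lines, a contrast that did not enter the choice, CEMIP was lower in A375 than in SKMel28, both among sensitive cells (-1.30 ± 0.11, edgeR adjusted p = 6.25e-07) and among resistant cells (-1.23 ± 0.14, edgeR adjusted p = 9.82e-06). The 4 groups kept the order SKMel28 sensitive, A375 sensitive, SKMel28 resistant and A375 resistant, with no overlap between neighbours. CEMIP shares 224 bases of exon, 2.94% of its exons, with MESDC2 (MESD in the annotation) on the opposite strand, and file names point to counting without strand. MESDC2 was called lower in A375 (67.5 to 62.8 CPM, log2 fold change -0.11, edgeR adjusted p = 0.0386), a call lost with DESeq2 (adjusted p = 0.183) and when any 1 of the 3 resistant A375 libraries or A375 sensitive replicate 1 or 2 was left out (edgeR adjusted p = 0.0916 to 0.311), and rose in SKMel28 (136 to 153 CPM, 0.17, edgeR adjusted p = 0.000234).

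TMEM2, the transmembrane relative of CEMIP that is also named CEMIP2, fell in both lines. Resistant A375 libraries held 52.8, 54.1 and 56.1 CPM and sensitive ones 162, 173 and 173 CPM. In SKMel28 the values were 120, 119 and 109 CPM against 173, 174 and 170 CPM. No resistant library reached a sensitive one in either line. The fall was 3.12-fold in A375 (log2 fold change -1.64 ± 0.04 SE, edgeR adjusted p = 1.42e-31) and 1.49-fold in SKMel28 (-0.57 ± 0.04, edgeR adjusted p = 1.79e-16). The size of the fall differed between lines, by -1.07 ± 0.06 (edgeR adjusted p = 4.41e-20). The sensitive groups of the 2 lines overlapped (-0.02 ± 0.04, edgeR adjusted p = 0.572), although scaling by library size alone put A375 higher by 0.12 (edgeR adjusted p = 0.00498). Among resistant cells TMEM2 was lower in A375 than in SKMel28 (-1.10 ± 0.04, edgeR adjusted p = 3.32e-26).

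Because CEMIP and TMEM2 were lower together, the 250 bases before their annotated starts (RefSeq, GRCh38.p14) are shown, 5′ to 3′ on the gene's strand, with every motif match in capitals.
CEMIP: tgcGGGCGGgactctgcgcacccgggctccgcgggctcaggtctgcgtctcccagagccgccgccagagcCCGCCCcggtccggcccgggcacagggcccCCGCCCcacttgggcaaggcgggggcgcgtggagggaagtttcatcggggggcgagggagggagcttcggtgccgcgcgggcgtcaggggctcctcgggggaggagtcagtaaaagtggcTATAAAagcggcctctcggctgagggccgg
TMEM2: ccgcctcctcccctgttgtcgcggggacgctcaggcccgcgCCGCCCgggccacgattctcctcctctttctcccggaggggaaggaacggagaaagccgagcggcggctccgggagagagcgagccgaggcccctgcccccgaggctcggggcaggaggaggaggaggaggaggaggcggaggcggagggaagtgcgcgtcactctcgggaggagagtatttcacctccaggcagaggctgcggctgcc
The CEMIP window is chr15:80779120-80779369 on the plus strand and the TMEM2 window chr9:71768514-71768763 on the minus strand. GENCODE extends TMEM2 further upstream, to position 71816690, so the window stands before 1 annotated start and not before the outermost. GENCODE starts CEMIP at 80779343, inside the RefSeq window. Both windows were GC-rich, at 74.4% and 71.6% against a median of 58% over 35116 promoters of that length. Motifs were searched on both strands, and no matches overlapped. The CEMIP window held the TATA box letters TATAAA once, beginning 30 bases before the RefSeq start and spanning the GENCODE start, and 10.7% of all windows held this motif. It held the GC box letters GGGCGG 3 times and the TMEM2 window once, while 42.6% of all windows held at least 1. Neither window held the AP-1 letters TGANTCA, found in 6.57% of all windows. The TEAD letters GGAATG, found in 11.9% of all windows, were in neither as well. These letters are a description and show no factor's binding.

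**Figure D1:**
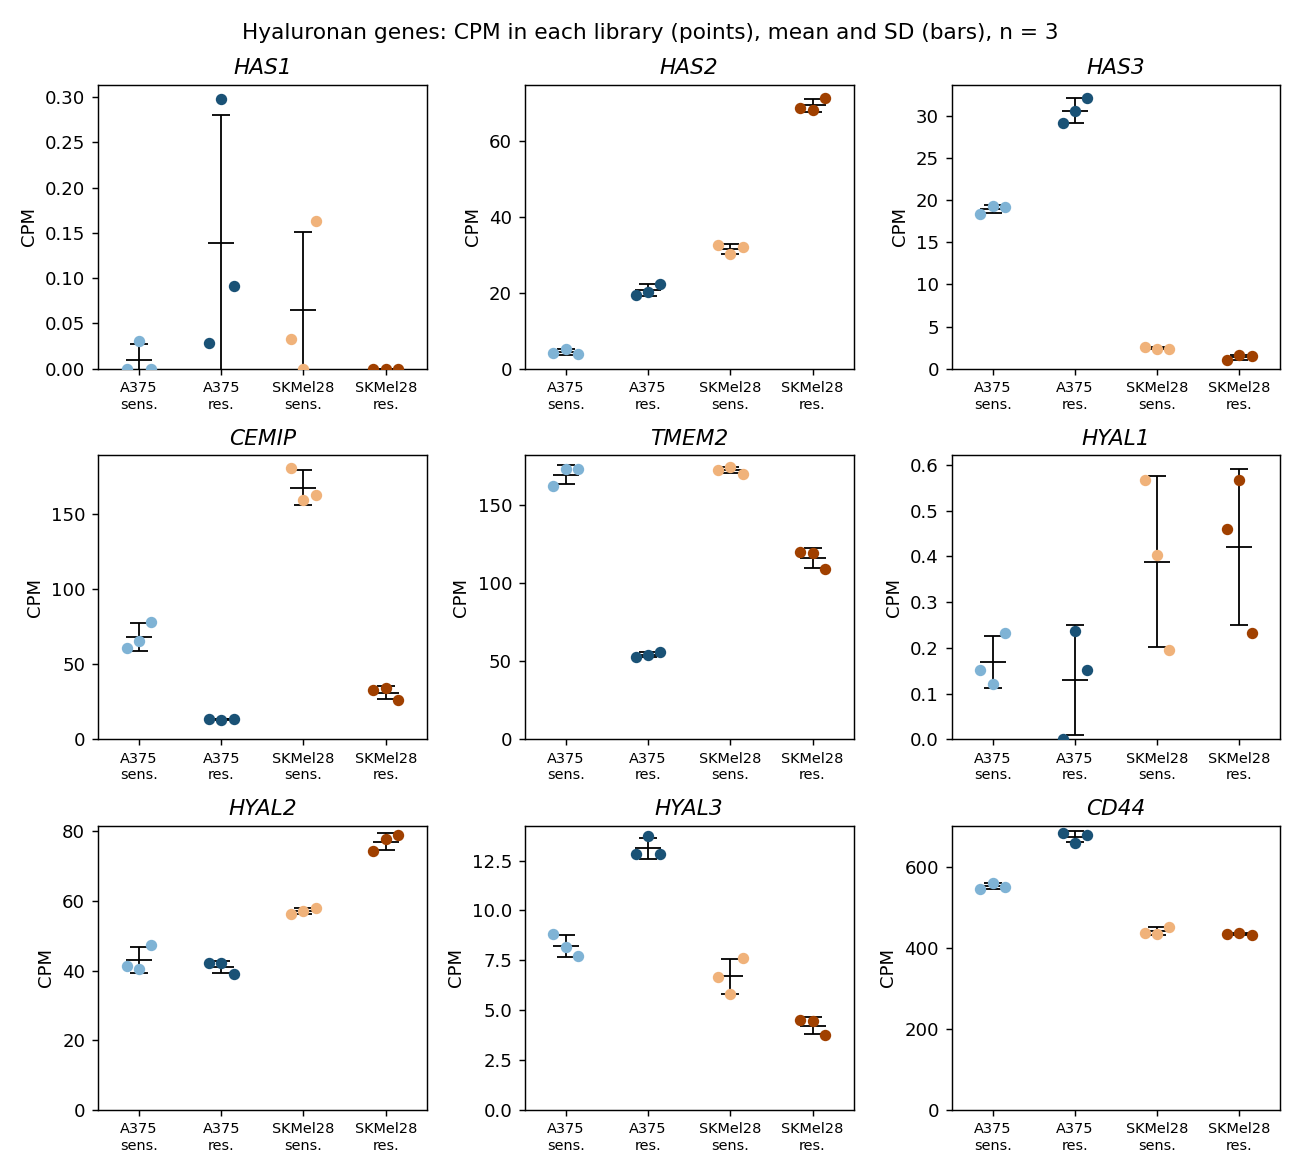
Level of each of the 9 genes in every library. The vertical axis gives CPM from 0 on a scale of its own per gene, the horizontal axis the 4 groups, points are libraries and bars the mean and SD of 3 libraries. CEMIP and TMEM2 sit lower and HAS2 sits higher in the resistant libraries of both lines, without overlap.

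HAS2, the synthase that forms long hyaluronan chains, rose in both lines. In A375 it was at 19.3, 20.2 and 22.4 CPM in resistant and 4.11, 5.18 and 3.89 CPM in sensitive libraries. In SKMel28 it was at 68.6, 68.2 and 71.3 CPM against 32.6, 30.1 and 32.0 CPM. All resistant libraries lay above all sensitive ones of their line. The rise was 4.69-fold in A375 (2.23 ± 0.09, edgeR adjusted p = 1.29e-24) and 2.20-fold in SKMel28 (1.13 ± 0.06, edgeR adjusted p = 6.37e-20), and it was larger in A375 by 1.10 ± 0.11 (edgeR adjusted p = 1.59e-11). The level was nevertheless lower in A375 than in SKMel28, 7.19-fold among sensitive cells (-2.85 ± 0.09, edgeR adjusted p = 2.23e-30) and 3.37-fold among resistant cells (-1.75 ± 0.07, edgeR adjusted p = 6.34e-27).

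HAS2-AS1, a noncoding gene on the opposite strand, shares 201 bases of exon with HAS2. Counted without strand, reads of the shared bases cannot be assigned to either gene. HAS2-AS1 rose with HAS2 in A375, from 0.636 to 2.01 CPM (1.66 ± 0.30, edgeR adjusted p = 7.90e-06). In SKMel28 it fell while HAS2 rose, from 2.00 to 1.17 CPM (-0.77 ± 0.28, edgeR adjusted p = 0.0122), a call that was lost without sensitive replicate 2 (edgeR adjusted p = 0.0505). The change differed between lines by 2.43 ± 0.41 (edgeR adjusted p = 1.41e-06).

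HAS3, a synthase of shorter chains, went in opposite directions. Resistant A375 libraries held 29.1, 30.6 and 32.1 CPM and sensitive ones 18.4, 19.2 and 19.2 CPM, a rise of 0.69 ± 0.08 (edgeR adjusted p = 1.25e-09). SKMel28 held far less, 1.04, 1.58 and 1.52 CPM in resistant and 2.60, 2.39 and 2.38 CPM in sensitive libraries, a fall of -0.83 ± 0.17 (edgeR adjusted p = 3.47e-05). The groups did not overlap in either line, and the changes differed by 1.52 ± 0.19 (edgeR adjusted p = 2.10e-09). A375 exceeded SKMel28 in HAS3 by 7.70-fold among sensitive and 22.1-fold among resistant cells (2.94 ± 0.11 and 4.47 ± 0.12, edgeR adjusted p = 1.74e-26 and 1.08e-32). HAS3 shares 365 bases of exon, 6.9% of its exons, with CHTF8 on the opposite strand, so its counts are uncertain there. CHTF8 had far more reads, with group means of 89.7 to 144 CPM. It was at 137 and 144 CPM in sensitive and resistant A375 (0.07, edgeR adjusted p = 0.167; called higher with DESeq2, adjusted p = 0.0292) and fell in SKMel28 with HAS3, from 114 to 89.7 CPM (-0.34, edgeR adjusted p = 1.12e-09). The part of CHTF8 reads in the HAS3 values was not tested.

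HAS1 was near the limit of detection and did not enter the test. Its reads were 1, 10 and 3 in resistant A375, 0, 1 and 0 in sensitive A375, none in resistant SKMel28, and 1, 0 and 5 in sensitive SKMel28. Of the 14 reads in resistant A375, 10 came from replicate 2.

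To set the synthases beside one another, CPM were divided by the length of each gene's longest transcript in GENCODE release 29 (2.11 kb for HAS1, 4.19 kb for HAS2, 4.22 kb for HAS3). HAS2 made up 18.9% ± 2.20 (SD, n = 3) of the summed synthase level per kb in sensitive A375 and 40.2% ± 0.842 in resistant A375, with HAS3 as nearly all of the rest. In SKMel28 HAS2 made up 92.5% ± 0.224 in sensitive and 98.1% ± 0.395 in resistant cells. HAS3 thus remained above HAS2 per kb in every A375 library, and HAS2 above HAS3 in every SKMel28 library. The summed synthase level went from 5.54 ± 0.244 to 12.2 ± 0.730 CPM per kb in A375 and from 8.15 ± 0.348 to 16.9 ± 0.431 in SKMel28. The summed level of CEMIP and TMEM2 went from 35.2 ± 2.03 to 10.1 ± 0.287 CPM per kb in A375 and from 49.2 ± 1.58 to 22.0 ± 1.57 in SKMel28. The ratio of the first sum to the second was 0.157 ± 0.00919 in sensitive and 1.21 ± 0.0392 in resistant A375, and 0.166 ± 0.00570 and 0.770 ± 0.0777 in SKMel28. These sums include CEMIP and were formed after the changes were known, so they carry no test. The second sum leaves out HYAL2, which also cuts hyaluronan outside the cell, so the ratio does not cover all such factors. HYAL2 was at 10.6 and 10.1 CPM per kb in sensitive and resistant A375 and at 14.1 and 19.0 in SKMel28. With merged exon length in place of the longest transcript, the ratio in resistant SKMel28 was 1.05, and HAS2 made up 22.6% and 45.7% of the synthase level in sensitive and resistant A375.

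**Figure D2:**
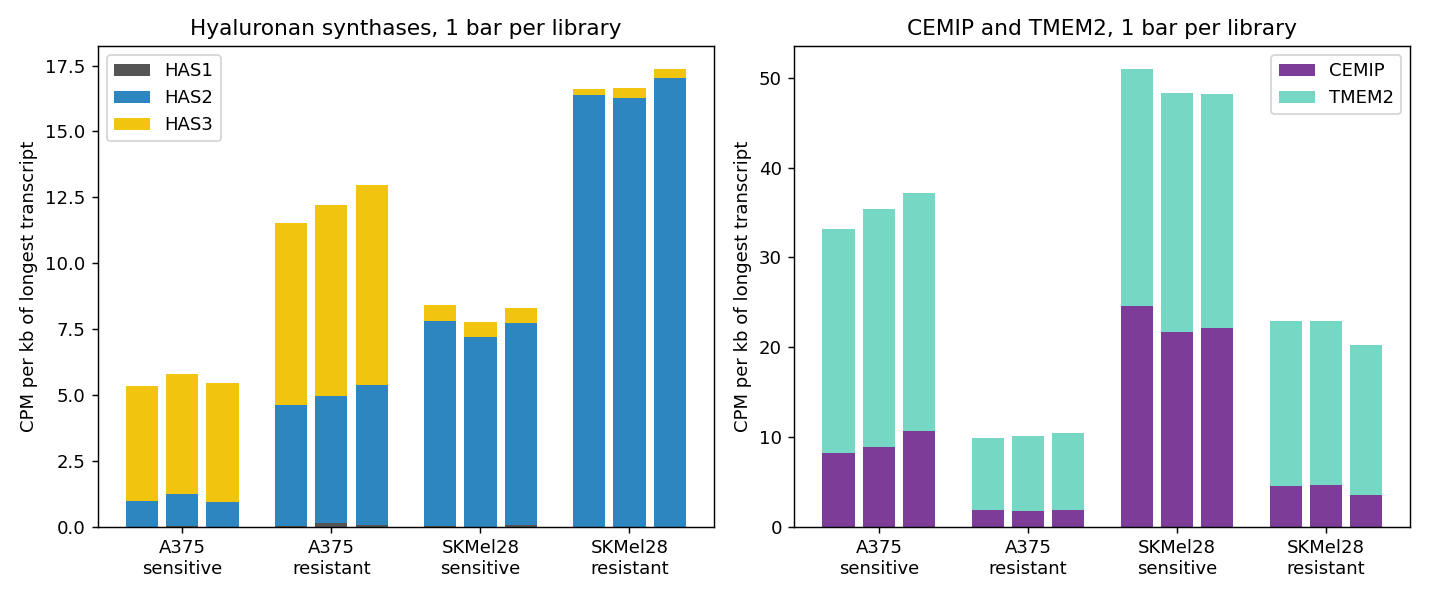
Levels per length of the synthases (left) and of CEMIP with TMEM2 (right). Each bar is 1 library, stacked by gene, and the vertical axis gives CPM per kb of the longest transcript from 0. The synthase bars are taller and the CEMIP and TMEM2 bars shorter in resistant libraries, and HAS3 fills most of the synthase bar in A375.

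HYAL2, a hyaluronidase anchored at the cell surface that cuts long chains, rose in SKMel28 alone. There the resistant libraries held 74.2, 77.8 and 79.1 CPM and the sensitive ones 56.2, 57.1 and 58.1 CPM (0.43 ± 0.05, edgeR adjusted p = 9.55e-10). In A375 the libraries overlapped, at 42.1, 42.0 and 39.0 CPM against 41.4, 40.6 and 47.3 CPM (-0.07 ± 0.06, edgeR adjusted p = 0.324). The changes differed between lines by -0.50 ± 0.08 (edgeR adjusted p = 2.23e-07).

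HYAL3, a relative whose own enzyme activity is little understood, rose in A375 and fell in SKMel28. A375 held 12.8, 13.7 and 12.8 CPM in resistant and 8.79, 8.14 and 7.72 CPM in sensitive libraries (0.67 ± 0.11, edgeR adjusted p = 1.37e-06). SKMel28 held 4.48, 4.44 and 3.73 CPM against 6.67, 5.81 and 7.59 CPM (-0.67 ± 0.13, edgeR adjusted p = 1.37e-05). Neither line's groups overlapped, and the changes differed by 1.34 ± 0.17 (edgeR adjusted p = 3.38e-09). HYAL3 shares 248 bases of exon with NAT6 (NAA80 in the annotation), 12.2% of its exons, and HYAL2 shares 509 bases with TUSC2, 11.2% of its exons, so these counts are uncertain where the genes overlap. NAT6 was at 10.2 and 11.3 CPM in sensitive and resistant A375 (0.15, edgeR adjusted p = 0.246) and rose in SKMel28 (0.42, edgeR adjusted p = 0.00213). TUSC2 rose in A375 (0.34, edgeR adjusted p = 9.14e-07) and fell in SKMel28 (-0.35, edgeR adjusted p = 1.04e-06). HYAL3 also shares 43 bases with IFRD2, which was at 124 and 132 CPM in sensitive and resistant A375 (0.09, edgeR adjusted p = 0.0604; called higher with DESeq2, adjusted p = 0.00780) and fell in SKMel28 from 76.4 to 64.4 CPM (-0.25, edgeR adjusted p = 3.87e-06). In SKMel28, NAT6 went opposite to HYAL3 and TUSC2 opposite to HYAL2, while IFRD2 went the same way as HYAL3.

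HYAL1, the lysosomal hyaluronidase, had 0 to 8 reads per A375 library and 6 to 18 per SKMel28 library. Its groups overlapped in both lines (-0.37 ± 0.75 and 0.11 ± 0.55, edgeR adjusted p = 0.711 and 0.882), and a difference of the size of those of HYAL2 or HYAL3 was not detectable at this depth. Among resistant cells it was called lower in A375 (-1.68 ± 0.65, edgeR adjusted p = 0.0160), although libraries overlapped and the call was lost without A375 resistant replicate 1 (edgeR adjusted p = 0.125) or SKMel28 resistant replicate 2 (edgeR adjusted p = 0.0840). HYAL1 passed the filter on low counts only through SKMel28 libraries, where it was higher, so nothing is read from this call.

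CD44, the main hyaluronan receptor, rose slightly in A375. The resistant A375 libraries held 686, 659 and 681 CPM and the sensitive ones 546, 561 and 552 CPM, a rise of 1.22-fold (0.29 ± 0.03, edgeR adjusted p = 1.41e-10). In SKMel28 the groups overlapped at 434, 436 and 432 CPM against 437, 434 and 452 CPM (-0.02 ± 0.03, 95% interval -0.09 to 0.04, edgeR adjusted p = 0.535). The changes differed by 0.31 ± 0.04 (edgeR adjusted p = 6.15e-08). CD44 was higher in A375 than in SKMel28, among sensitive and among resistant cells (log2 differences 0.33 ± 0.03 and 0.64 ± 0.03, edgeR adjusted p = 1.09e-12 and 1.57e-22). GENCODE lists 39 transcripts of CD44, and gene counts do not separate its standard and variant forms.

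**Figure D3:**
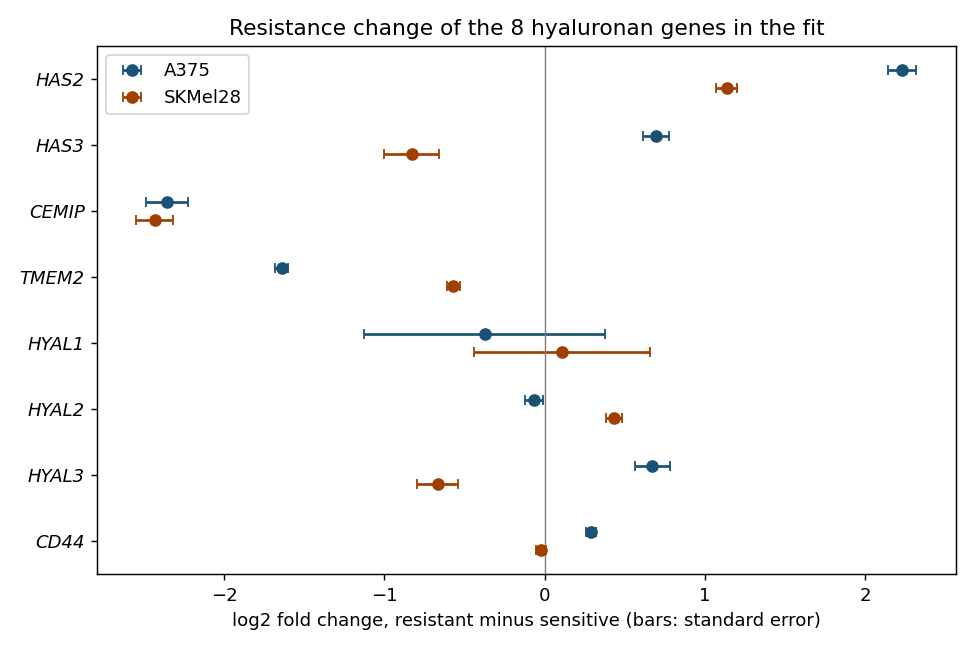
Log2 fold change of resistant against sensitive cells for the 8 genes in the fit, HAS1 being too low to enter. Points are fitted values per line, bars standard errors, and the vertical line marks no change. CEMIP and TMEM2 lie left of 0 and HAS2 right of 0 in both lines, while HAS3 and HYAL3 lie on opposite sides.

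Of the 8 genes other than CEMIP, 7 passed the filter on low counts. In A375, HAS2, HAS3, HYAL3 and CD44 rose, TMEM2 fell, and 2 were not called. In SKMel28, HAS2 and HYAL2 rose, TMEM2, HAS3 and HYAL3 fell, and 2 were not called. Over the 15506 genes in the fit, the background in A375 was 51.3% called, 25.0% higher and 26.3% lower. In SKMel28 the background was 70.0%, with 34.2% higher and 35.8% lower. Since the set was chosen on the same contrasts, nothing is read from these counts. The change differed between lines for 6 of the 7, every one but HYAL1, with 4 differences above 0 and 2 below. Over all genes tested 63.8% differed, 31.4% above and 32.4% below. Between the sensitive groups 5 of the 7 differed, 3 higher and 2 lower in A375, against 82.9% of all genes, 42.4% higher and 40.5% lower. Between the resistant groups 7 of 7 differed, 3 higher and 4 lower, against 85.3% of all genes, 42.6% higher and 42.7% lower. The 4 lower include HYAL1, which passed the filter only through SKMel28 libraries. HYAL3 was 1.23-fold higher in sensitive A375 than in sensitive SKMel28 (0.30 ± 0.12, edgeR adjusted p = 0.0191). This call was lost without A375 sensitive replicate 1 (edgeR adjusted p = 0.0937) or SKMel28 sensitive replicate 2 (edgeR adjusted p = 0.139). HYAL2 was lower in A375, by -0.41 ± 0.05 among sensitive and -0.91 ± 0.05 among resistant cells (edgeR adjusted p = 5.27e-09 and 7.50e-20).

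Per kb of the longest transcript, CD44 led in all 4 groups, at 75.8 to 118 CPM per kb on average, with no overlap with the next gene. In sensitive A375 it was followed by TMEM2 at 26.0 CPM per kb, then by HYAL2 at 10.6 and CEMIP at 9.26, whose libraries overlapped, then HAS3 at 4.49 and HYAL3 at 4.23, which also overlapped, and HAS2 at 1.05. In resistant A375 the order was HYAL2 at 10.1, TMEM2 at 8.32, HAS3 at 7.25, HYAL3 at 6.75, HAS2 at 4.92 and CEMIP at 1.80 CPM per kb, with overlap between HAS3 and HYAL3. CEMIP thus went from above to below the synthases HAS2 and HAS3 per kb. In sensitive SKMel28 TMEM2 at 26.4 and CEMIP at 22.8 CPM per kb came before HYAL2 at 14.1 and HAS2 at 7.54. Merged exon length turned the order of TMEM2 and CEMIP there, with a ratio of CEMIP to TMEM2 of 1.23 in place of 0.862. It also put HYAL3 above HAS3 without overlap in both A375 groups, and moved TMEM2 in resistant A375 to 5.64 CPM per kb, behind HYAL3 at 6.46 and HAS3 at 5.78, the latter with overlap. In resistant SKMel28 HYAL2 at 19.0, TMEM2 at 17.8 and HAS2 at 16.6 CPM per kb overlapped in turn, and CEMIP stood at 4.23. By merged exon length HAS2 at 16.6 lay above TMEM2 at 12.1 there, without overlap. HAS1 and HYAL1 were below 0.2 CPM per kb in every group.

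The genes lie on 7 chromosomes (GENCODE release 29, GRCh38). CEMIP is on chromosome 15 (80779343 to 80951776, plus strand), TMEM2 on 9 (71683366 to 71816690, minus), HAS3 on 16 (69105564 to 69118719, plus) and CD44 on 11 (35138870 to 35232402, plus). HAS1 is on chromosome 19 (51713112 to 51723994, minus) and HAS2 on 8 (121612116 to 121641390, minus). HYAL3, HYAL1 and HYAL2 follow one another on chromosome 3 within 50292831 to 50322906, on the minus strand. To see whether whole neighbourhoods shifted, each gene was set beside the tested genes within 5 Mb. The median log2 fold change around CEMIP was -0.03 in A375 and -0.02 in SKMel28 over 80 genes, of which 2 and 4 lay below CEMIP. Around TMEM2 it was -0.12 and -0.29 over 36 genes, of which 3 lay below TMEM2 in A375 and 13 in SKMel28. Around HAS2 the 45 neighbours had a median of 0.00 in A375, all of them below HAS2, but 0.48 in SKMel28, where 8 lay above it. Around HAS3 the 109 neighbours had medians of 0.05 and -0.44, and 26 of them lay below HAS3 in SKMel28. Around HYAL3 the 151 neighbours had medians of 0.01 and 0.03, while its own changes were 0.67 and -0.67. The 38 neighbours of CD44 had medians of 0.15 and -0.28. The falls of HAS3 and TMEM2 and the rise of HAS2 in SKMel28 therefore stand among neighbours whose median had the same sign. In A375 this also holds for the fall of TMEM2 and the rises of HAS3 and CD44, and CD44 lay above 25 of its 38 neighbours. CEMIP in both lines, HAS2 and HYAL3 in A375 and HYAL2 in SKMel28 matched as well, with medians from -0.03 to 0.03. The part of these shifts in the genes' own changes was not tested.

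**Figure D4:**
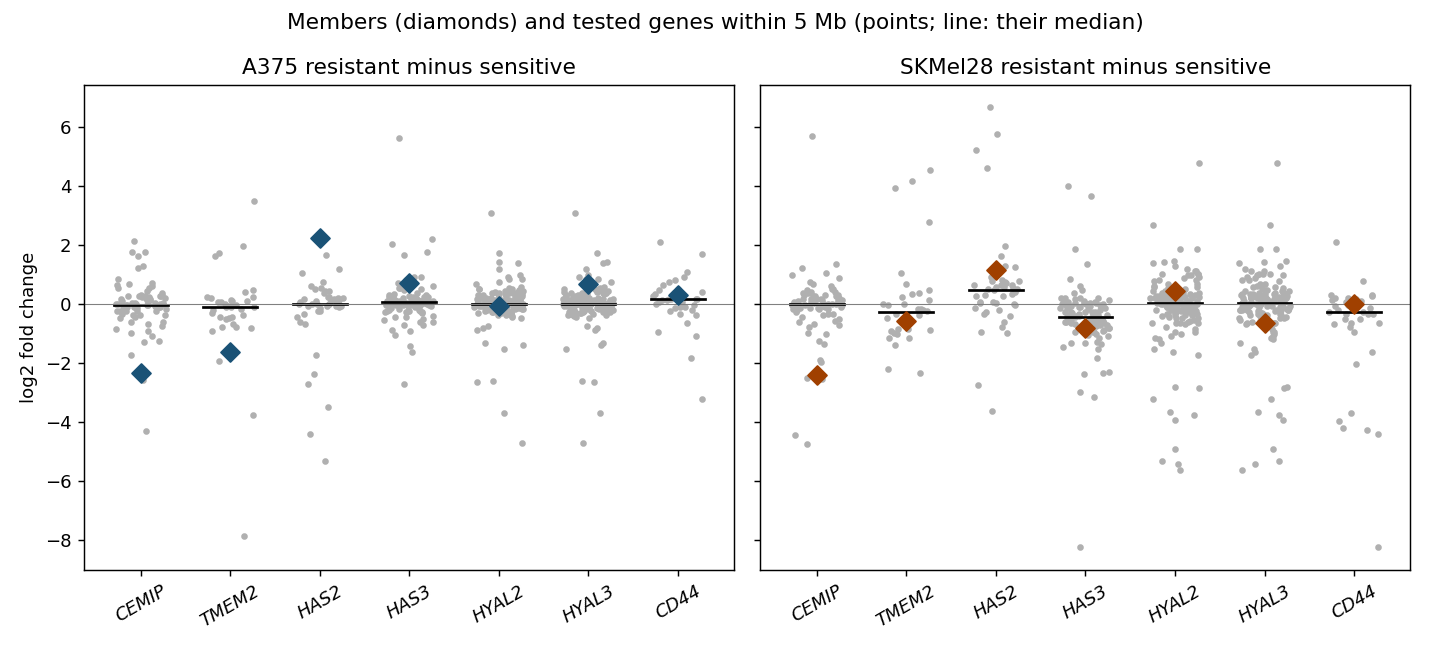
Log2 fold change of 7 hyaluronan genes (diamonds) and of the tested genes within 5 Mb of each (points, spread sideways for legibility, with their median as a line), in A375 (left) and SKMel28 (right). HAS2 lies above all 45 neighbours in A375, and the neighbours of HAS2 in SKMel28 have a median of 0.48.

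Over the 12 libraries the log2 CPM of CEMIP and TMEM2 had a Pearson r of 0.91, that of HAS2 and HAS3 an r of -0.74 and that of HAS3 and CD44 an r of 0.95. The libraries fall into 4 groups of 2 lines, so these coefficients describe group differences and carry no p. Among 11642 genes at 5 CPM or more in a group, the patterns most like that of CEMIP were those of HIC2 (r = 0.993), TES (0.993), BCL9 (0.985), BRD9 (0.983) and TANC2 (0.979). TES, for example, was at 75.3 and 44.2 CPM in sensitive and resistant A375 and at 106 and 59.3 CPM in SKMel28. Closest to TMEM2 were KIF2C, MGAM2 and SOX5 (0.981 to 0.987), closest to HAS2 were EFR3B, CYBRD1 and SOX4 (0.988 to 0.991), and closest to HAS3 were CACNB3, EHD2 and TFE3 (0.997 to 0.998). Closest to HYAL2 were SCRG1, AVPI1 and CUBN (0.989 to 0.994), to HYAL3 were MBTPS1, MICAL2 and DUSP6 (0.984 to 0.990), and to CD44 were SGCZ, PLK1 and LTBP2 (0.995 to 0.996).

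Beyond these 9 genes, 51 others of hyaluronan supply, breakdown, binding and reception were listed, of which 38 were tested. The resistant A375 cells had 11 of them higher and 13 lower, 63.2% of those tested against 51.3% of all genes, with a median log2 fold change of 0.00 as over all genes. The resistant SKMel28 cells had 13 higher and 17 lower, 78.9% against 70.0%, with a median of -0.17 against -0.01.

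Enzymes that supply the UDP-sugars went in mixed directions, 5 up and 3 down of 11 in A375 and 4 up and 6 down in SKMel28. These are 72.7% and 90.9% of the list, against 51.3% and 70.0% of all genes. GFPT2, which encodes a form of the enzyme that commits fructose phosphate to hexosamines, went from 96.8 CPM in sensitive to 215 CPM in resistant A375, a rise (1.15 ± 0.04, edgeR adjusted p = 3.88e-25), and from 5.92 to 0.403 CPM in SKMel28, a fall (-3.85 ± 0.17, edgeR adjusted p = 5.51e-24). UAP1, which forms UDP-N-acetylglucosamine, rose in A375 (log2 fold change 0.32, 189 to 237 CPM), while SKMel28 showed a fall (-1.02, 77.1 to 37.9 CPM). UGDH, which forms UDP-glucuronic acid, fell in SKMel28 (131 to 87.7 CPM, -0.58) and was at 40.1 and 37.8 CPM in sensitive and resistant A375 (-0.09, edgeR adjusted p = 0.120). PGM1, an enzyme of glucose phosphate conversion, fell in both lines (-0.90 and -0.18), and UAP1L1, a relative of UAP1, rose in both (0.39 and 0.19).

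Of the lysosomal enzymes that finish hyaluronan breakdown, GUSB (51.6 to 32.5 CPM, -0.67) and HEXA (241 to 217 CPM, -0.15) fell in SKMel28. HYAL4 and SPAM1 were not tested, with group means of at most 0.548 CPM. Of 7 other receptors only HMMR and TLR4 were tested. HMMR, which also serves the mitotic spindle, rose in SKMel28 (101 to 146 CPM, 0.52), and TLR4 fell in A375 (91.7 to 80.4 CPM, -0.19) and rose in SKMel28 (10.9 to 20.4 CPM, 0.91).

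Among 11 tested proteins that bind hyaluronan in the matrix, A375 had 2 up and 4 down, and SKMel28 had 4 up and 3 down. These are 54.5% and 63.6% of the list, against 51.3% and 70.0% of all genes. The link protein gene HAPLN1 fell in A375 from 132 to 23.8 CPM (-2.48 ± 0.06, edgeR adjusted p = 1.52e-30) and had 1 read over all 6 SKMel28 libraries. VCAN, the proteoglycan versican, rose in A375 (4.83 to 10.3 CPM, 1.10) and in SKMel28 (7.79 to 15.6 CPM, 1.00). PTX3, a pentraxin of hyaluronan-rich matrix, rose in A375 from 74.2 to 174 CPM (1.23). In SKMel28 it was far lower and rose from 0.264 to 0.507 CPM (0.92, edgeR adjusted p = 0.0144), a call lost without sensitive replicate 1 (edgeR adjusted p = 0.128) and with SKMel28 fitted alone (edgeR adjusted p = 0.0789). ACAN (the proteoglycan aggrecan), ITIH5 and HAPLN3 fell in both lines. In SKMel28, ACAN fell from 11.8 to 0.943 CPM (-3.64 ± 0.22, edgeR adjusted p = 2.78e-18), ITIH5 from 14.5 to 3.29 CPM (-2.14) and HAPLN3 from 14.97 to 5.14 CPM (-1.54). In A375, where ACAN and ITIH5 were below 1 CPM, ACAN fell by 2.19, ITIH5 by 5.40 (101 reads over the sensitive and 2 over the resistant libraries) and HAPLN3 by 0.66 on the log2 scale (edgeR adjusted p = 0.000154, 1.40e-10 and 6.94e-06). ACAN had 65 reads over the sensitive A375 libraries and 2, 12 and 0 in the resistant ones.

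Partners, sheddases and splicing factors of CD44 formed 1 list of 11 genes. They were called in both directions, 3 up and 5 down in A375 and 3 up and 6 down in SKMel28. These are 72.7% and 81.8% of the list, against 51.3% and 70.0% of all genes. EZR, which links CD44 to actin, fell in SKMel28 from 180 to 89.2 CPM (-1.01 ± 0.04, edgeR adjusted p = 6.01e-26) and in A375 from 249.8 to 228 CPM (-0.13, edgeR adjusted p = 0.00180), the latter lost without A375 resistant replicate 3 (edgeR adjusted p = 0.113). ESRP1, a splicing factor known to favour variant exons of CD44, rose in SKMel28 from 30.3 to 102 CPM (1.75 ± 0.06, edgeR adjusted p = 1.44e-26) and had group means of at most 0.0398 CPM in A375. The CD44 sheddase gene ADAM17 fell in A375 (-0.22, 52.5 to 45.2 CPM) and rose in SKMel28 (41.1 to 68.5 CPM, 0.74). ADAM10, a further sheddase, fell in A375 (-0.37, 113 to 87.4 CPM). Its SKMel28 level was called higher (198 to 210.2 CPM, 0.09, edgeR adjusted p = 0.0267), a call lost with library size alone (edgeR adjusted p = 0.175) and without SKMel28 resistant replicate 1 or 2 or sensitive replicate 1 (edgeR adjusted p = 0.0681 to 0.0773). MMP14, a membrane protease that also cuts CD44, rose in A375 (0.19, 164 to 186 CPM), while its level in SKMel28 fell (-0.71, 1167 to 715 CPM), and it was added after its values were seen. NF2, whose product binds CD44, rose in A375 (0.24, 146 to 173 CPM), while SKMel28 showed a fall (-0.18, 130.3 to 115 CPM, edgeR adjusted p = 0.000125).

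**Figure D5:**
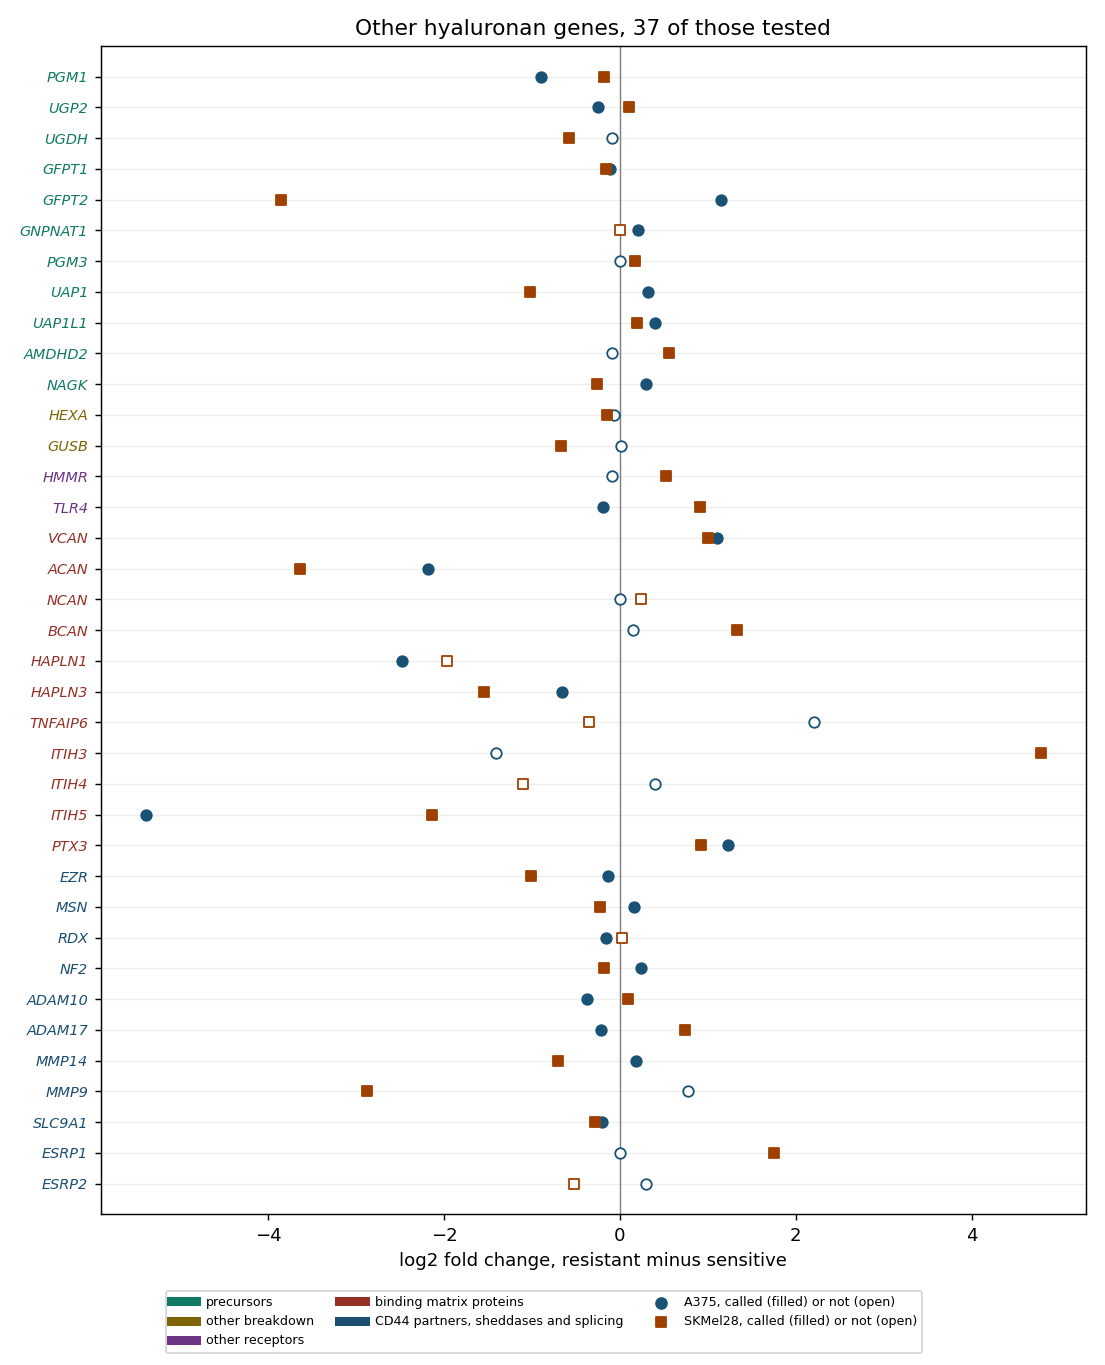
Log2 fold change of resistant against sensitive cells for 37 of the 38 other tested hyaluronan genes, grouped by list through the colour of the gene name. Circles are A375 and squares SKMel28, filled where the edgeR adjusted p was below 0.05. GFPT2 lies right of 0 in A375 and left of 0 in SKMel28, and VCAN lies right of 0 in both.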

How the data were processed

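Counts of reads per gene symbol, 1 table per library, were used as the authors deposited them, without normalization. Per the submitters' processing notes, HISAT2, StringTie and GRCh38.p12 were used, while the deposited files' names point to STAR and to counting without strand, so the aligner is not settled. Between 15.1% and 19.5% of counted reads were assigned to no gene. Replicates differed by more than counting noise (chi-square per degree of freedom 2.81 to 7.45).

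Genes were filtered with filterByExpr (15506 kept), scaled by TMM and fitted with 4 group means over 12 libraries in edgeR 4.0.16 (robust quasi-likelihood, R 4.3.3). Tests were two-sided, with Benjamini-Hochberg adjustment over all genes and a threshold of 0.05. Fold changes carry standard errors, and levels are CPM. The script was tested on simulated counts. Alternatives were DESeq2 1.42.0, other scalings, no filter, each line alone, a replicate block and leaving out each library. The 5 Mb neighbourhoods and merged exon lengths were added later. The genes and lists were chosen with earlier results of these data known. Named were the 9 genes, genes overlapping them, the melanocytic markers, the 5 (CEMIP) or 3 genes of highest Pearson r on log2 CPM (prior count 2), MMP14, and per list and line up to 3 called genes of largest change at 5 CPM or more. Of 26499 symbols, 23876 matched GENCODE directly and 712 by another symbol. The values of 1 listed gene are not reported here.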

Additional observations from a re-analysis of the deposited data

Results flagged for a closer look

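The resistance change differed between the lines for several genes, by the edgeR test of the difference itself (adjusted p below 0.05), given here as the log2 change in A375 minus that in SKMel28. Among the hyaluronan genes the difference was HAS3 (1.52), HYAL3 (1.34), HAS2 (1.10) and CD44 (0.31) on the higher side and TMEM2 (-1.07) and HYAL2 (-0.50) on the lower side. HAS3 and HYAL3 rose in A375 and fell in SKMel28. Among the listed and overlapping genes named in the text it was above 0 for CHTF8 (0.41), EZR (0.88), GFPT2 (5.00), GUSB (0.68), HAPLN3 (0.89), HAS2-AS1 (2.43), IFRD2 (0.34), NF2 (0.43), TUSC2 (0.69), UAP1 (1.35) and UGDH (0.49). It was below 0 for ADAM10 (-0.46), ADAM17 (-0.95), HMMR (-0.61), ITIH5 (-3.26), MESDC2 (-0.28), PGM1 (-0.72) and TLR4 (-1.10). Listed genes outside the naming rule, on which no alternative was run, also differed, above 0 for GNPNAT1 (0.20), NAGK (0.56), MSN (0.39), MMP14 (0.89) and MMP9 (3.65) and below 0 for UGP2 (-0.35), PGM3 (-0.17), AMDHD2 (-0.66), BCAN (-1.18), ITIH3 (-6.20) and RDX (-0.18). Of these, ITIH3 and MMP9 were near the limit of detection. ITIH3 had 7 reads over the resistant and 19 over the sensitive A375 libraries, and 40 and 1 in SKMel28. It entered the fit chiefly through resistant SKMel28 libraries, where it was highest, so nothing is read from its difference. Group means of MMP9 were 0.233 to 1.74 CPM. PGM3 (-0.17, adjusted p = 0.0479) lay just below the threshold. UAP1L1 (0.21, adjusted p = 0.0351) was near the threshold and lost its call in 7 of 12 fits without 1 library, at adjusted p = 0.0511 to 0.107. ACAN (1.46, adjusted p = 0.0476) lost its call in 8 of those fits, and without A375 resistant replicate 2 the difference was -0.62 (adjusted p = 0.543).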

How the results depend on the processing

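In every alternative run, CEMIP was lower in resistant cells, with log2 fold changes from -2.44 to -2.25 in A375 and from -2.51 to -2.31 in SKMel28. Within each line, the calls of TMEM2, HAS2, HAS3, HYAL2, HYAL3 and CD44 held in all 18 alternatives, as did those of their differences between lines in all 17. TMEM2 between the sensitive groups turned to 0.12 with library size alone, a scaling that moved the median of all genes to 0.18. Without 1 library, 7207 to 8244 genes were called in A375 and 10354 to 10974 in SKMel28. Replicate numbers gave no clear pairing of the libraries, with same-number correlations of residuals from -0.00240 to 0.0301 in A375 and from 0.00767 to 0.0471 in SKMel28. In SKMel28 each resistant library correlated best with the sensitive library of its number, while in A375 resistant replicates 2 and 3 did not. With 3 libraries per group, pairing is not excluded by these values. With replicate number as a block, 8077 genes were called in A375, 10896 in SKMel28 and 9963 for the difference between lines, against 7959, 10854 and 9891 without it. With no filter, which lets HAS1 enter, 7 of the genes other than CEMIP differed between lines in place of 6, and 8 between resistant groups in place of 7. Over all 20382 genes then tested, 10040 and 13930 were called in these contrasts, so nothing is read from the member counts. The ACAN difference between lines ran from -0.62 without A375 resistant replicate 2, where its sign turned, to 2.03 without A375 resistant replicate 3. Resistant A375 replicates 1, 2 and 3 held 2, 12 and 0 ACAN reads, and the part of this in the swing was not tested. HAS1 and HYAL1 are limited by depth, with at most 18 reads per library.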
